A study of Mus musculus with 4 samples.

Results

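Nuclear hormone receptors are transcription factors that bind DNA through zinc fingers and, in most cases, change activity when a small lipid-soluble ligand enters a pocket in the protein. Many act as heterodimers with a retinoid X receptor (RXR), steroid receptors act mainly as homodimers, and orphan receptors have no established ligand. In T cells the family is known for glucocorticoid control of survival, for retinoic acid and vitamin D effects on differentiation and homing, and for sterol sensing during growth. A list of 36 receptor genes was followed through 4 RNA-seq libraries, and all 36 symbols matched a gene among the 50600 in the files. The list leaves out 13 other receptor genes, whose values are given near the end. The labels describe primary T cells from C57BL/6NJ mice, with no sex collected and with age and stage unknown. They give no treatment and no control group. A differentiation protocol for CD4 T cells is linked, and the headers carry the terms Th0, activated and 48h, none of them given by the labels. The 4 biological replicates carry the same donor identifier. Nothing in the labels says that they came from separate animals, so the tests see only the spread among these libraries, which may be technical.

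Totals ran from 45110199 to 127755788 read pairs assigned to genes, a 2.83-fold range, with replicate 3 the deepest. Of 9 T cell marker genes, 8 lay above 1 CPM (a gene's counts scaled to its library's total), and Cd8a lay below it. Markers of other cell types lay above 1 CPM by limma in 4 sets: 2 of 6 for macrophages, 1 of 5 for dendritic cells (Zbtb46, 5.76 ± 0.845 CPM), 1 of 4 for NK cells (Eomes, 2.34 ± 0.392 CPM) and 1 of 3 for endothelium (Pecam1, 26.9 ± 1.52 CPM), with means ± SD over 4 libraries. The dendritic cell markers Itgax and Clec9a and the endothelial marker Cdh5 had no count, and the NK cell marker Ncr1 had 2 in all libraries together. None of the B cell, hepatocyte, adipocyte, fibroblast or erythroid markers lay above 1 CPM by limma. The summed level of the 5 B cell markers was 1.72 to 3.21 CPM, and that of the 4 hepatocyte markers at most 0.0562 CPM. Among the 6 macrophage markers, Lyz2 had no count and Csf1r had 1 in all libraries together, while Cd68 and Adgre1 stood at 2.69 ± 0.315 and 2.6 ± 0.332 CPM (SD, n = 4). In bulk RNA, fewer cells of a type and less RNA per cell cannot be told apart.

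The annotated starts of the receptor genes differed in sequence, and 4 stretches are shown as examples. Counts are per gene, so the output of a single start site was not measured. Each run below holds the 250 bases before a start site, 5′ to 3′ on the gene's strand, from RefSeq on GRCm38.p6. In the runs for Rxra (chr2:27676951-27677200, plus strand), Rxrg (chr1:167618015-167618264, plus strand) and Rara (chr11:98937446-98937695, plus strand), capitals mark CG dinucleotides. Rxra and Rxrg are shown because they are close relatives at opposite ends of the levels measured here. In the run for Rarb (chr14:16575477-16575726, minus strand), capitals mark a direct repeat of the receptor core motif with a spacer of 5 bases, the classic form of a retinoic acid response element.
Rxra: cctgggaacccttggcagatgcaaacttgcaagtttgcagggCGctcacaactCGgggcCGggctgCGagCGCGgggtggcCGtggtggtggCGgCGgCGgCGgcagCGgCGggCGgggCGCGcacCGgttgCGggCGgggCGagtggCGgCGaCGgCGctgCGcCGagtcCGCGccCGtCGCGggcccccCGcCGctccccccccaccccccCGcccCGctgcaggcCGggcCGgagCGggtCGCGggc
Rxrg: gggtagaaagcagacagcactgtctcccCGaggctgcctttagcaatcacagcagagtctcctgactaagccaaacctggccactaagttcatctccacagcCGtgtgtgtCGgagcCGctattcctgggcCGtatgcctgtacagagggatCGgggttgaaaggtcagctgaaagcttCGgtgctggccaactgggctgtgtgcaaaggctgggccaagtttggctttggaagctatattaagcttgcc
Rara: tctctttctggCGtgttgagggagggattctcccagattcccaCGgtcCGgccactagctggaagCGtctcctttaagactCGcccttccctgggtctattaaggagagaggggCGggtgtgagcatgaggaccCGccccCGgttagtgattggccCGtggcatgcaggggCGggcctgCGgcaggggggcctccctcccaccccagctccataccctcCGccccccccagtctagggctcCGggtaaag
Rarb: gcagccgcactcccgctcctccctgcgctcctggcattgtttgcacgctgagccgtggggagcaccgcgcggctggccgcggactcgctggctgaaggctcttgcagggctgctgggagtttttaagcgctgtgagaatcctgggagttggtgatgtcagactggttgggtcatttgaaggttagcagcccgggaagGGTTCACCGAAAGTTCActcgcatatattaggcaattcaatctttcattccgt
For Rxra, Rxrg and Rara the run shown is from the start site with most CG dinucleotides: 40 for Rxra, 13 for Rara and 7 for Rxrg. Other start sites hold fewer: 1 at the other Rxra start, 6 at the other Rxrg start, and as few as 2 for Rara. The order of Rxra and Rxrg thus turns with the start site chosen. The repeat before Rarb begins 53 bases before the start site. The core motif was read as AGGTCA, with G also allowed at the first base and T at the third. This was the only match of this repeat among 51 start sites of 33 receptor genes, searched on both strands, and 0.0883% of all 32851 promoters in the table hold one.

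Of the 36 receptor genes, 15 lay above 1 CPM, 7 below it, 3 on neither side by the test, and 11 had no count in any library. The test was limma on log2(CPM + 0.1), one-sided in each direction, with p-values adjusted over all 23365 genes with a count. Over those genes 47.4% lay above, 48.3% below and 4.28% on neither side. All 36 are protein-coding. Among the 15076 protein-coding genes with a count 69.3% lay above 1 CPM and 26.8% below, against 15 and 7 of the 25 receptor genes with a count. No count was found for 30.7% of all 21764 protein-coding genes and for 53.8% of all genes, against 11 of 36 here. The receptor count above the threshold was also 15 at 2 CPM, at 1 TPM and with DESeq2 at 1 CPM, where 44.1%, 50.5% and 47.9% of all genes with a count passed. By these shares the list sat near the background of protein-coding genes. The receptor genes with a count had a median of 5.87 TPM, a scale that also corrects for gene length, below the 14.2 TPM of all protein-coding genes with a count. By branch of the family, 7 of 16 genes of NR1, which holds most RXR partners, lay above 1 CPM. The counts were 5 of 10 for NR2, which holds the RXRs, and 2 of 7 for NR3, which holds the steroid receptors. They were 0 of 2 for NR5 and 1 of 1 for NR6. Genes without a count are kept in these branch totals. On that basis 10453 of all 21764 protein-coding genes lay above 1 CPM.

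**Figure D1:**
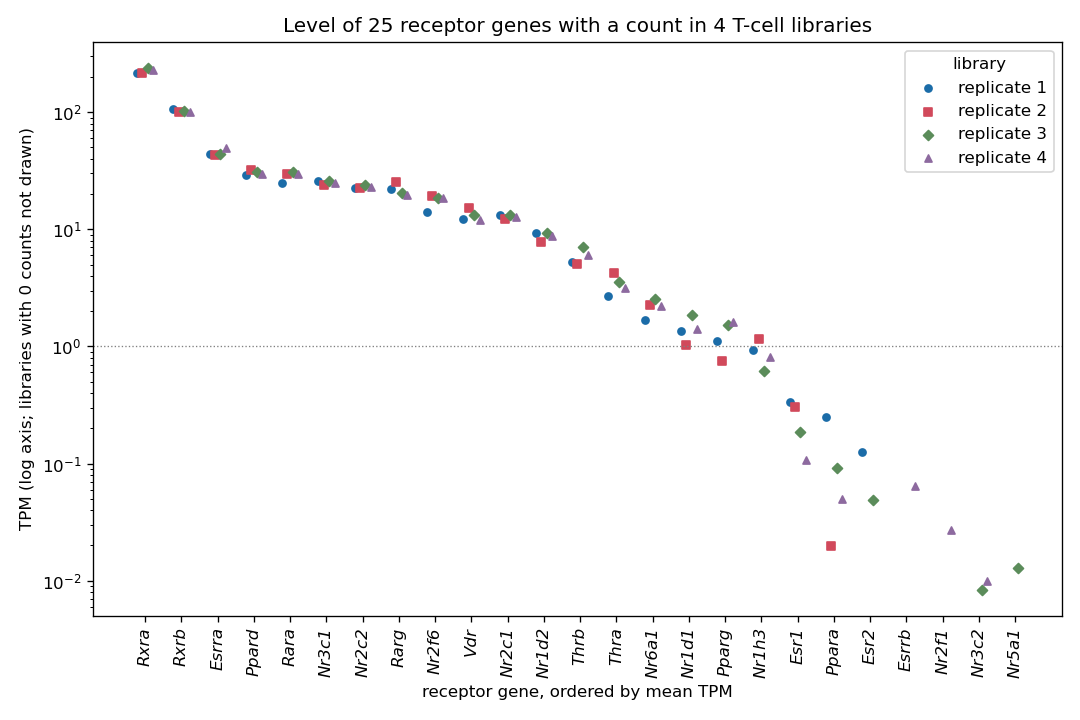
TPM on a log axis (vertical) for the 25 receptor genes with a count (horizontal, by mean TPM), with a point for each of the 4 libraries; the dotted line is 1 TPM and libraries at 0 are not drawn. Rxra sits between 214 and 236 TPM, above every other listed receptor gene in all 4 libraries, and the points of a gene spread more widely at the low end.

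The RXRs, the shared heterodimer partners of the family, held most of the listed receptor transcript. Rxra (ENSMUSG00000015846.14, mm10 chromosome 2, 27676440 to 27762957) stood at 215, 214, 236 and 228 TPM in replicates 1 to 4, the order used throughout. Rxrb (chromosome 17, 34031812 to 34038393) stood at 106, 100.1, 103 and 101 TPM. The libraries differed little for either gene, and the ranges of the genes did not overlap. Rxrg, the RXR best known from muscle and brain, had no count, which allows at most 0.0235 to 0.0665 CPM depending on the library (3 counts per library, counting error only). Rxra made up 68.6% ± 1.16 of RXR transcript (SD, n = 4) and 39.4% ± 0.889 of the TPM of all 36 genes. The log2 ratio of Rxra over Rxrb in TPM was 1.13 ± 0.08, with Rxra higher in 4 of 4 libraries. Against Rxrg, Rxra was at least 2164-fold higher in TPM in every library, taking 3 counts as the floor. With 4 libraries the exact two-sided sign-flip test of such a pair cannot give a p below 0.13 (rounded), and each pair with a measured ratio gave that smallest value. Rxra and Rxrb both lay above 1 CPM (356 ± 14.2 and 110.3 ± 2.92 CPM, limma adjusted p = 3.68e-18 and 6e-18).

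The summed RXR level exceeded that of 13 listed NR1 receptors that pair with RXR, but not once partners outside the list were added. RXR transcript summed to 321, 314, 339.6 and 329 TPM. The 13 were the retinoic acid, thyroid hormone, vitamin D, PPAR, oxysterol, bile acid and xenobiotic receptors. Listed NR2 genes such as Nr2c1, Nr2c2 and Nr2f6 were not counted among them. The 13 partners summed to 98.9, 113, 108 and 103 TPM. The ratio was 3.1 ± 0.21 (SD, n = 4), above 1 in every library. Adding Nr1h2, an oxysterol receptor outside the list, raised the partners to 187 ± 8.67 TPM, below the RXR sum in every library. Adding also Nr4a1 and Nr4a2, orphan receptors known to pair with RXR, raised them to 1266 ± 66.4 TPM, above the RXR sum in every library. These are sums of transcript, and protein was not measured.

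Retinoic acid receptor transcript came from Rara and Rarg. Rara, the form linked to retinoic acid responses of T cells, stood at 24.9, 29.4, 30.6 and 29.7 TPM, with replicate 1 lowest. Rarg stood at 22.2, 25.4, 20.3 and 19.5 TPM. Their ranges overlapped between libraries, but within each library Rara was the higher. The log2 ratio was 0.16, 0.21, 0.59 and 0.61, with a mean of 0.39 ± 0.24 (SD, n = 4), smaller in replicates 1 and 2 than in 3 and 4. Rarb had no count, and Rara exceeded it at least 392-fold in TPM in every library. Rarb is itself a known retinoic acid target, and the repeat shown before its start says nothing of binding in these cells. Rara and Rarg both lay above 1 CPM (36.4 ± 3.09 and 26.2 ± 3.22 CPM, limma adjusted p = 4.7e-15 and 8.91e-14).

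Genes that supply, carry and answer to retinoids were expressed in part: 6 of 15 lay above 1 CPM, 7 below, and 2 had no count. Rdh11 and Dhrs3, which act on retinal, stood at 163 ± 4.43 and 62.4 ± 4.18 CPM (SD, n = 4). Crabp2, which carries retinoic acid to its receptors, stood at 29.3 ± 2.45 CPM. Stra6, the retinol uptake receptor gene, stood at 110.5 ± 3.77 CPM and is named after its value was seen. The retinal dehydrogenase gene Aldh1a2, whose product makes retinoic acid, had 1 count in all libraries together, and the gut homing receptor gene Ccr9, a retinoic acid target, had 3.

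**Figure D2:**
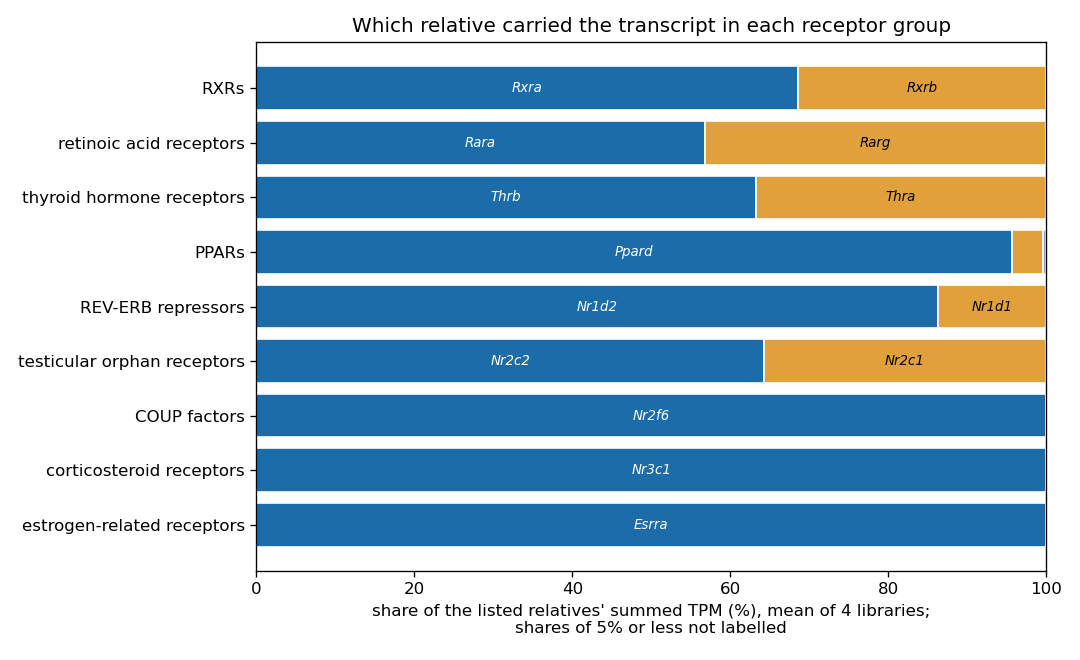
Share of the summed TPM of the listed relatives (horizontal, percent, mean of 4 libraries) for groups of related receptor genes (vertical), each bar divided by gene. Nr2f6, Nr3c1 and Esrra hold nearly all of their groups, while Rara and Rarg divide theirs at 56.8% and 43.2%.

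Both thyroid hormone receptor genes were expressed at low levels. Thrb stood at 5.29, 5.02, 7.08 and 6.09 TPM and Thra at 2.7, 4.21, 3.55 and 3.17 TPM. Thrb was the higher in 4 of 4 libraries and the ranges did not overlap. The log2 ratio of Thra over Thrb was -0.94, -0.25, -0.98 and -0.92, with a mean of -0.77 ± 0.35 (SD, n = 4) and replicate 2 nearest to 0. Both lay above 1 CPM (limma adjusted p = 1.44e-11 for Thrb and 2.66e-08 for Thra). Thra shares 263 exon bases with Nr1d1 on the opposite strand, and the headers state a strand option in counting. Of 5 genes of thyroid hormone handling, the transporter gene Slc16a10 and the activating deiodinase gene Dio2 lay above 1 CPM at 42 ± 1.51 and 5.82 ± 1.47 CPM (SD, n = 4). Dio1 and Dio3 had no count.

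Of the PPARs, which sense fatty acids, the broadly expressed Ppard held most transcript. Ppard stood at 29.3, 31.9, 30.7 and 29.7 TPM. Pparg, best known from adipocytes and macrophages, stood at 1.12, 0.745, 1.53 and 1.63 TPM. Ppara, best known from liver, had 16, 1, 13 and 3 counts. The ranges of the 3 genes did not overlap in TPM, though those of Ppara rest on few counts. Ppard made up 95.7% ± 1.35 of PPAR transcript, and its log2 ratio over Pparg was 4.55 ± 0.51 (SD, n = 4). Ppard lay above 1 CPM (41 ± 1.51 CPM, limma adjusted p = 1.39e-16) and Ppara below it (0.115 ± 0.115 CPM, adjusted p = 6.21e-06). Pparg, at 1.08 ± 0.345 CPM, lay on neither side (limma adjusted p = 0.854 for above and 1 for below). The adipocyte markers Plin1 and Lep had no count and Adipoq had 7 in all libraries together.

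Among 11 known PPAR targets, 7 lay above 1 CPM, 1 below, and 3 had no count. The fatty acid oxidation gene Acadl stood at 110.0 ± 4.38 CPM, the lipid carrier gene Fabp5 at 89.2 ± 4.45 CPM and Angptl4, an inhibitor of lipoprotein lipase, at 39.1 ± 1.94 CPM (SD, n = 4). The fatty acid transporter gene Cd36 lay below at 0.0487 ± 0.0482 CPM. No receptor was perturbed, so these levels cannot be assigned to one.

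Receptors for sterols, vitamin D and foreign compounds were unequal. Vdr, the vitamin D receptor gene, which activated T cells are known to express, stood at 12.2, 15.1, 13.3 and 12 TPM and lay above 1 CPM (21.6 ± 2.29 CPM, limma adjusted p = 7.62e-14). Nr1h3, the oxysterol receptor LXR alpha of macrophages and liver, stood at 0.929, 1.15, 0.616 and 0.817 TPM and lay below 1 CPM (0.643 ± 0.166 CPM, limma adjusted p = 0.028). That limma call was lost without replicate 3 (adjusted p = 0.151), without replicate 4 (0.0781) and at a threshold of 1 TPM (0.485). Its relative Nr1h2, LXR beta, outside the list, was 98.5 ± 27.9 times as high in TPM (SD, n = 4), lowest in replicate 2 and highest in replicate 3. The bile acid receptor gene Nr1h4 and the xenobiotic receptor genes Nr1i2 and Nr1i3, best known from liver and gut, had no count. Nr1i3 shares 74.9% of its exon bases with Tomm40l on the opposite strand, which had 2714 to 7273 counts.

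All 7 listed oxysterol receptor targets lay above 1 CPM by limma. The lipid synthesis genes Scd2, Srebf1 and Scd1 led them in TPM at 1159 ± 66, 205 ± 10.4 and 147 ± 7.69 TPM (SD, n = 4). Named after its value was seen, Lpcat3 stood at 106 ± 4.44 TPM. Abcg1, Abca1 and Mylip, also named after their values were seen, were low at 8.79 ± 0.519, 3.7 ± 0.673 and 3.59 ± 0.341 TPM. These levels cannot be assigned to a receptor, because no receptor was perturbed. Of the 3 vitamin D handling genes, Cyp2r1, which hydroxylates vitamin D, lay below 1 CPM at 0.497 ± 0.197 CPM, Cyp27b1 lay on neither side at 0.727 ± 0.185 CPM, and Cyp24a1, a known target of the receptor, had no count.

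Transcript of the REV-ERB repressors of the circadian clock came mostly from Nr1d2. Nr1d2 stood at 9.27, 7.76, 9.38 and 8.69 TPM, and Nr1d1 at 1.34, 1.04, 1.86 and 1.42 TPM. The ranges did not overlap, and both genes were lowest in replicate 2. The log2 ratio of Nr1d1 over Nr1d2 was -2.58 ± 0.23 (SD, n = 4). Nr1d2 lay above 1 CPM (12.8 ± 1.04 CPM, limma adjusted p = 5.57e-13). Nr1d1, at 1.27 ± 0.293 CPM, did not pass (limma adjusted p = 0.177), but passed when only genes kept by edgeR's filterByExpr were tested (0.0467). Rorb, a brain and retina form of the activators that compete for the same DNA sites, had no count, while Rora, a relative outside the list, stood at 10.7 ± 0.337 TPM (SD, n = 4). Of 15 clock genes, 13 lay above 1 CPM, 1 below and 1 on neither side. Among them Bhlhe40 stood at 959.5 ± 32.8 CPM, Per1 at 106 ± 3.59 CPM and Cry1 at 56.5 ± 3.92 CPM, all 3 genes of clock repressors, against 0.042 ± 0.0451 CPM for Bhlhe41.

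**Figure D3:**
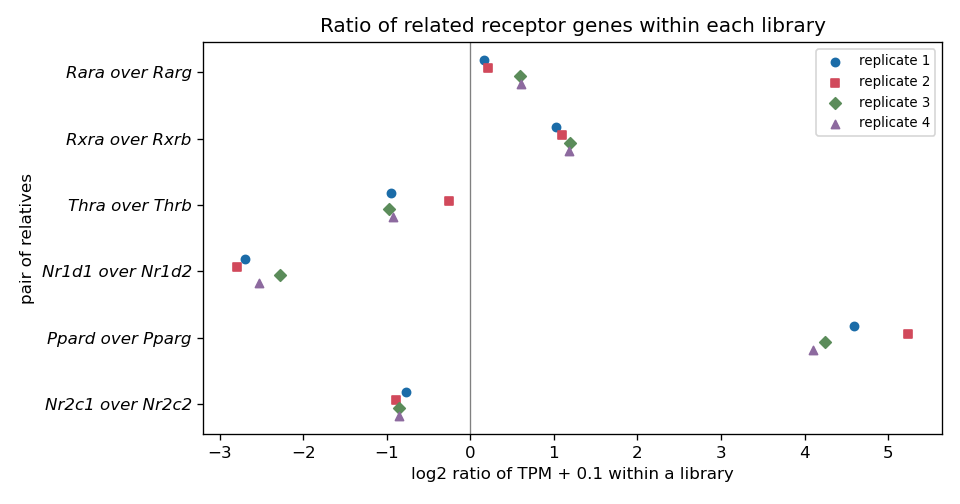
Log2 ratio of TPM + 0.1 within each library (horizontal) for the 6 pairs of relatives with a measured ratio (vertical), with a point per library. Each pair stays on the same side of 0 in all 4 libraries, and replicate 2 lies apart for Thra over Thrb, at -0.25.

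Of the orphan receptors of NR2, the testicular receptors and 1 COUP-related factor were expressed. Nr2c2 (TR4) stood at 22.7, 22.7, 23.9 and 23 TPM and Nr2c1 (TR2) at 13.3, 12.2, 13.1 and 12.7 TPM. Neither gene varied much between libraries and the ranges did not overlap. The log2 ratio of Nr2c1 over Nr2c2 was -0.84 ± 0.05 (SD, n = 4). Both lay above 1 CPM (100.4 ± 1.65 CPM for Nr2c2 and 17.2 ± 0.649 CPM for Nr2c1, limma adjusted p = 5.17e-18 and 1.37e-14). Mrps25 covers 30.7% of the exon bases of Nr2c2 on the opposite strand and had 1632 to 4094 counts.

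Nr2f6, a COUP-related repressor known to restrain T cell cytokine genes, stood at 14.1, 19.1, 18.6 and 18.6 TPM, lowest in replicate 1, and lay above 1 CPM (15.3 ± 2 CPM, limma adjusted p = 2.2e-12). Its relatives known from development were at or near 0: Nr2f1 had 2 counts, both in replicate 4, and Nr2f2 had none. Nr2f6 exceeded Nr2f2 at least 675-fold in TPM in every library. The photoreceptor factor gene Nr2e3 and the liver factor gene Hnf4a had no count. Ocel1 covers 54.4% of the exon bases of Nr2f6 on the opposite strand and had 292 to 697 counts.

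Among steroid receptors the glucocorticoid receptor gene was by far the highest. Nr3c1 stood at 25.8, 24.1, 25.6 and 25.1 TPM, a narrow range, and lay above 1 CPM (54.4 ± 1.61 CPM, limma adjusted p = 3.66e-17). Nr3c2, the mineralocorticoid receptor gene, had 0, 0, 2 and 1 counts, and Pgr, the progesterone receptor gene, had none. Esr1, the estrogen receptor alpha gene, had 77, 55, 93 and 23 counts, which is 1.35, 1.22, 0.728 and 0.431 CPM, higher in replicates 1 and 2 than in 3 and 4. It lay on neither side of 1 CPM (0.933 ± 0.429 CPM, limma adjusted p = 0.482 for below), but at 0.234 ± 0.107 TPM it lay below 1 TPM (limma adjusted p = 0.00146). Esr2, the beta form, had 7, 0, 6 and 0 counts and lay below 1 CPM (limma adjusted p = 1.64e-07). The summed B cell markers, at 2.92, 3.21, 2.08 and 1.72 CPM, were also higher in replicates 1 and 2, and their part in the Esr1 levels was not tested.

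Chaperone genes of the glucocorticoid receptor were abundant. All 6 lay above 1 CPM by limma, led in TPM by Hsp90ab1 at 6283 ± 157 TPM, Hsp90aa1 at 851 ± 11.9 TPM and the co-chaperone gene Stip1 at 673 ± 10.2 TPM (SD, n = 4). Of 7 glucocorticoid target and enzyme genes, 5 lay above 1 CPM, 1 below and 1 on neither side. Per1, the phosphatase gene Dusp1 and the transcription factor gene Klf9 stood at 106 ± 3.59, 38.3 ± 1 and 7.26 ± 0.328 CPM, and Zbtb16 had 2 counts in all. Tsc22d3, the glucocorticoid-induced leucine zipper gene, stood at 9.65 ± 1.13 CPM and is named after its value was seen.

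Of the estrogen-related receptors, orphan regulators of mitochondrial genes, Esrra was the third gene of the whole list in TPM. Esrra stood at 43.9, 42.9, 43.9 and 49.4 TPM, highest in replicate 4, and lay above 1 CPM (33.3 ± 2.22 CPM, limma adjusted p = 1.55e-15). Esrrb, known from pluripotent cells, had 6 counts, all in replicate 4, and lay below 1 CPM (limma adjusted p = 7.84e-08). The PGC-1 family coactivator genes that partner Esrra were unequal: Pprc1 stood at 282 ± 13.6 CPM, and Ppargc1a had 3 counts in all. Ppargc1b, named after its value was seen, lay above 1 CPM at 7.08 ± 0.798 CPM (limma adjusted p = 1.14e-10).

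The remaining orphan receptors were low or without a count. Nr6a1, the germ cell nuclear factor gene, stood at 1.69, 2.28, 2.53 and 2.21 TPM, lowest in replicate 1, and lay above 1 CPM (6.85 ± 1.06 CPM, limma adjusted p = 6.02e-10). Nr5a1, the steroidogenic factor gene of adrenal and gonad, had 2 counts, both in replicate 3, and its relative Nr5a2 had none. Nr5a1, Nr3c2 and Nr2f1 lay below 1 CPM (limma adjusted p = 4.82e-10, 5.63e-10 and 1.3e-09).

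Ordered by mean TPM, the 25 genes with a count formed 24 neighbouring pairs, of which 10 had ranges that did not overlap between libraries. Rxra, Rxrb and Esrra each stood apart from the next. Ppard, Rara and Nr3c1 overlapped in turn, as did Nr2c2 with Rarg, and Nr2f6, Vdr and Nr2c1. Nr6a1, Nr1d1, Pparg and Nr1h3 overlapped as a chain. Of 21 pairs of relatives, 18 kept 1 order in 4 of 4 libraries, and in the other 3 both genes were at or under 3 counts in every library. Of the 18, 6 had a measured ratio, 6 a lower bound because 1 gene had no count, and in 6 a gene averaged under 1 TPM, where the pseudocount sets much of the ratio.

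No receptor gene differed between replicates beyond the trend for genes of its abundance by the test used. The edgeR goodness-of-fit test called 0 of 19 receptor genes that passed filterByExpr at an adjusted p below 0.05, where 0.422% of 13279 genes passed. At an unadjusted p below 0.05 it called 2, against 5.8% of all genes tested. These were Esr1 (edgeR adjusted p = 0.701) and Rarg (edgeR adjusted p = 0.754). Rarg, at 26.8, 30.5, 24 and 23.4 CPM, was like Esr1 higher in replicates 1 and 2 than in 3 and 4. The coefficient of variation over libraries ran from 1.74% for Nr2c2 to 45.8% for Esr1. Its median was 10.4% against 6.2% for all genes tested, which are not matched in abundance. It exceeded the trend's value for 12 of the 19 receptor genes, against 39.2% of all genes tested. The trend's value leaves out counting error, which the coefficient includes.

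**Figure D4:**
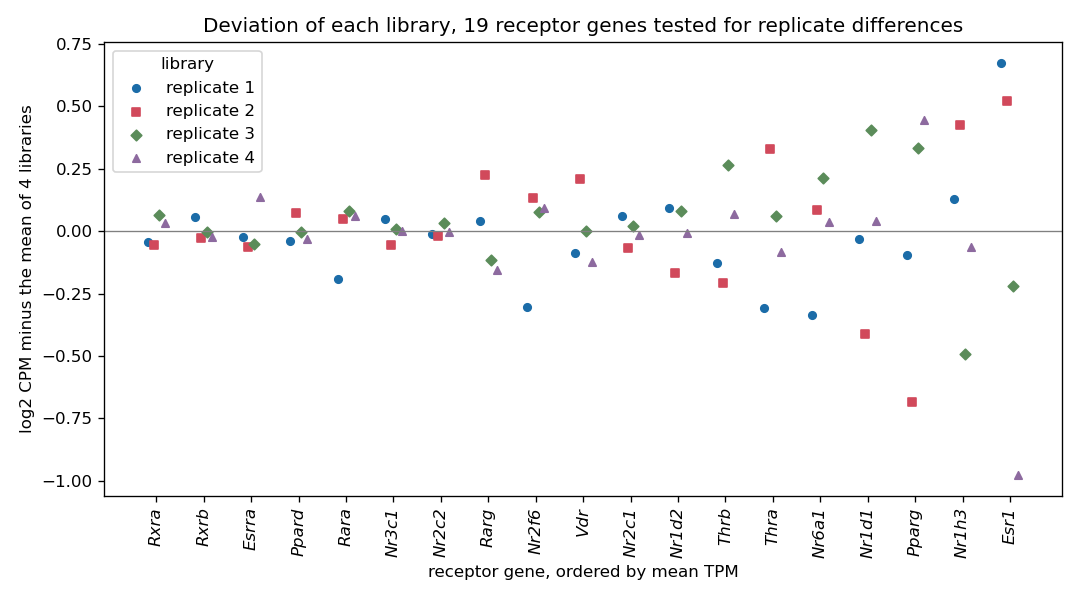
Log2 CPM of each library minus the mean of the 4 libraries (vertical) for the 19 receptor genes tested for differences between replicates (horizontal), with a point per library. Points close on 0 for genes such as Nr2c2 and spread widest for Esr1, whose values run from 1.35 down to 0.431 CPM.

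Receptor genes with no count had, in the median, fewer CG dinucleotides before their start sites. RefSeq start sites matched 33 of the 36 genes, all but Nr3c1, Nr5a1 and Thra. For 42 of their 51 start sites the first 25 transcribed bases were found in a transcript, and all 51 were kept. Taking the start site with most CG dinucleotides for each gene, the 13 genes above 1 CPM had a median of 20 in 250 bases (7 to 42), the 6 below a median of 14.5 (6 to 27) and the 11 with no count a median of 4 (1 to 18). All protein-coding genes showed the same order, with medians of 18 above 1 CPM, 8 below and 2 with no count. Across the 33 genes Spearman's rho between this number and mean TPM was 0.685, against 0.603 over 16469 protein-coding genes; these are descriptions across genes, which are not independent replicates. With the start site poorest in CG dinucleotides for each gene, rho over the 33 was 0.401.

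Single genes departed from that order. Rorb and Rarb had 18 and 16 CG dinucleotides and no count, and Ppara had 27 with a mean of 0.103 ± 0.102 TPM (SD, n = 4). Nr6a1 lay above 1 CPM with 7. The core receptor motif AGGTCA, searched on both strands, was found before 10 of 51 start sites of listed genes (19.6%), against 14% of all promoters. The GC box GGGCGG was found before 43.1%, against 32.7%. CACGTG, the E-box bound by clock factors, was found before 7.84%, against 6.02%, and not in the windows of Nr1d1 or Nr1d2. These matches are letters in a window of 250 bases and describe no binding.

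**Figure D5:**
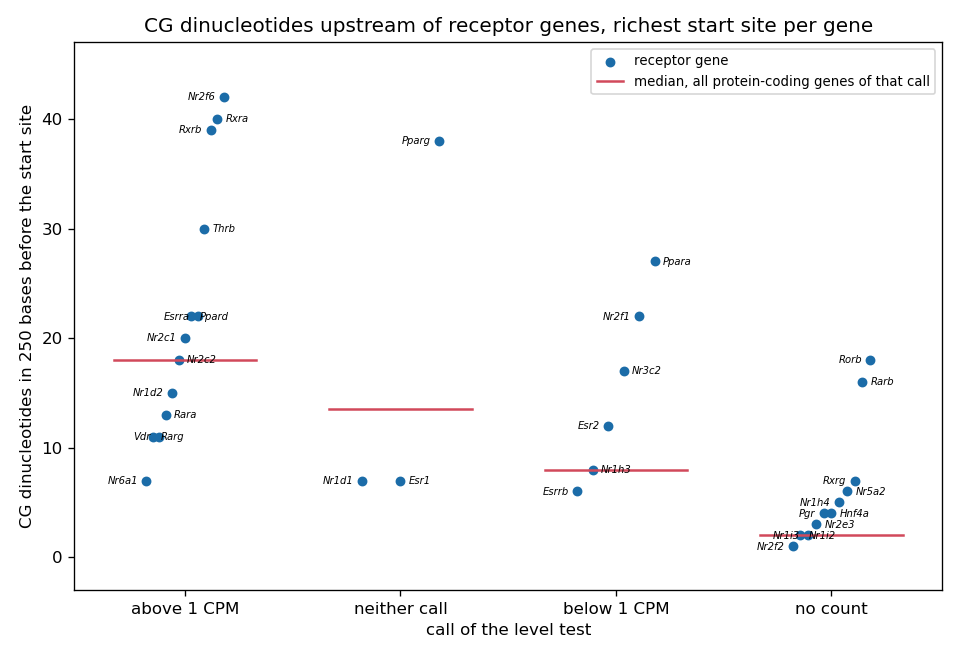
Number of CG dinucleotides in the 250 bases before the start site with most of them (vertical) for 33 receptor genes, grouped by the outcome of the level test (horizontal); red lines are medians of all protein-coding genes of that outcome. Points for genes with no count lie at 7 or below except Rorb and Rarb, while Nr2f6, Rxra and Rxrb lie at 42, 40 and 39.

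Receptor genes outside the list put these levels in proportion. Of the 13, 7 lay above 1 CPM and 6 had no count (Nr0b1, Nr0b2, Nr1h5, Nr2e1, Esrrg and Hnf4g). Nr4a1, an orphan receptor induced by antigen receptor signalling, stood at 1006 ± 58.7 TPM (SD, n = 4) and made up 52.4% ± 0.752 of the TPM of all 49 receptor genes. The 36 listed genes made up 29.6% ± 0.573. Nr4a3, Nr1h2 and Nr4a2 stood at 111 ± 7.08, 81.9 ± 5.02 and 72 ± 3.88 TPM, between Rxra and Esrra. Of 22 coactivator and corepressor genes, 21 lay above 1 CPM, led in TPM by the arginine methyltransferase gene Carm1 at 159 ± 7.78 TPM, Pprc1 at 129 ± 6.99 TPM and the corepressor subunit gene Tbl1x at 112 ± 5.08 TPM (SD, n = 4). Over the 10 companion lists, 73 of 103 distinct genes lay above 1 CPM, with genes without a count kept in the total. With such genes kept in the same way, 10453 of 21764 protein-coding genes and 11081 of all 50600 genes did. Among genes with a count alone, the shares were 69.3% and 47.4%. The counts given above for single lists also keep genes without a count, and are to be read beside the shares that keep them.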

How the data were processed

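Each deposited file lists a raw count for every gene: per the file headers, featureCounts 1.4.6-p4 assigned read pairs to GENCODE M13 exons, requiring both ends mapped and using strand option 2. The headers name STAR alignments, and mm10 comes from the labels. Aligner version and handling of multiply mapped reads: not given in the sources used here. Total RNA is the assay named by the labels, whereas their library protocol is named for polyadenylated RNA. Symbols matched 99.56% of gene IDs. CPM used library totals, and TPM the files' exon lengths. Levels were tested with limma 3.58.1 (intercept only, trend) and replicate differences with edgeR 4.0.16 goodness of fit, at an adjusted p of 0.05 (Benjamini-Hochberg). edgeR's quasi-likelihood test cannot test an intercept alone. DESeq2 1.42.0, other scalings, pseudocounts, filters and thresholds, and leaving out each replicate were alternatives. The code was tested on simulated data. R was 4.3.3 and pandas 2.3.3. Floors cover counting error only.

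The members, pairs and lists were chosen with earlier results of these data known. Genes named are all members, both genes of each pair, the 13 other receptors, from each other list the 3 highest in TPM above 1 CPM and the 2 lowest below it, and markers. Other names give overlaps or counts of 5 or fewer, or are stated as chosen after seeing values. Cyp27b1 falls outside this rule and is named to complete the vitamin D handling list. A few genes that this rule names are not reported here.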

Additional observations from a re-analysis of the deposited data

Results flagged for a closer look

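1 library stood far from the other 3 for the total count and for 11 of 59 genes checked. For 7 of the 11 the gene was counted in 1 library only, which meets the criterion by construction. For values without such zeros chance flags about 1 in 20 groups, a rate that applies at most to the total and the other 4 genes. Replicate 3 held 127755788 counts, far above the other totals. Replicate 1 was low for Rara (31.8 CPM) and for Nr2f6 (12.3 CPM). Acadl was low in replicate 4 (103 CPM). The rest had 14 or fewer counts in the library concerned. Esrrb and Nr2f1 were counted only in replicate 4 (0.112 and 0.0375 CPM). Counted in replicate 3 alone were Nr5a1 and Zbtb16 (0.0157 CPM each), and Ccr9 and Ppargc1a (0.0235 CPM each). Bhlhe41 was highest there at 0.11 CPM. Aldh1a2 was counted only in replicate 2 (0.0222 CPM).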

How the results depend on the processing

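Of the 25 receptor genes with a count, 21 kept their direction and their side of the threshold under every alternative in which they could be tested. Nr1d1, Nr1h3, Pparg and Esr1 did not. The number above 1 CPM, 15, was 15 to 16 in the alternatives, DESeq2 included. The number below, 7, became 1 with filterByExpr, which drops genes with few counts, and 18 with no filter, which adds the 11 genes without a count. It was 4 to 7 with each replicate left out, lowest without replicate 4, where Esrrb and Nr2f1 had no count and Nr1h3 lost its call. The number on neither side, 3, was 0 at a threshold of 2 CPM, and 3 to 4 with a replicate left out. On the log2 scale relative to 2 CPM, Nr1d1 stood at -0.65 and Pparg at -0.89. Relative to 1 CPM and leaving out a replicate, Pparg ran from -0.088 (without replicate 4) to 0.25 and Esr1 from -0.40 to 0.085 (without replicate 4). No receptor gene differed between replicates (edgeR, adjusted p) under any alternative run, while the count over all genes, 56, was 33 to 40 with a replicate left out. All 12 pair ratios kept their sign. No paired analysis was possible because the labels give 1 group. Receptor genes with a mean under 1 CPM rest on few counts, at most 93 in a library, for Esr1.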
